A study of Homo sapiens with 6 samples.

Results

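The regions described here are 1500 wide stretches of chromatin that carried SUMO-2/3 in mock-treated HL-60 cells and had no counterpart in the peak lists of drug-treated cells. The regions were chosen by peak width and by overlap between lists: a mock peak was taken when it measured 300 bp or more and shared no base with any peak called after cytosine arabinoside (Ara-C) or daunorubicin (DNR). The 3 lists hold 149899 peaks, and 3929 mock peaks of 300 bp or more were eligible once a dense stretch of chromosome 8 (125 to 135 Mb) and the first and last 1 Mb of every chromosome had been set aside. HL-60 is a human acute myeloid leukemia (AML) cell line. The cells were treated for 2 h with water (mock), 2 µM Ara-C or 1 µM DNR, and SUMO-2/3-bound chromatin was immunoprecipitated and sequenced (ChIP-seq) to ask whether the drugs change where SUMOylated proteins lie on the genome. Material from 3 biological replicates was pooled into 1 library per condition, so each condition has 1 peak list, no difference has a replicate check and no p-value is given. The lists give peak positions with no height or read number, so depth is unknown, and a peak missing from a drug list may be lost signal or signal that stayed under the calling threshold in that library.

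SUMO is a small protein that is attached to lysines of other proteins by an E1 enzyme, an E2 enzyme and E3 ligases such as the PIAS proteins, and removed by SENP proteases. Transcription factors and chromatin regulators are among its main targets. A SUMO-2/3 ChIP-seq peak therefore marks a place where some SUMOylated protein sat on DNA, without naming that protein.

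The sequences that follow show 2 kinds of DNA found under these peaks, all from the GRCh37 reference (hg19). The first 6 are 60-base windows around the core motif of CTCF, the zinc finger protein that anchors chromatin loops, with the motif in capitals and read on the strand on which it matched. They come from 3 peaks at promoters and 3 elsewhere.
CDC42SE1 promoter, chr1:151043669-151043728, + strand: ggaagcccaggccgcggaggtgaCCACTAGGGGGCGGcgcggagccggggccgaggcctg
UNC5CL promoter, chr6:41007211-41007270, - strand: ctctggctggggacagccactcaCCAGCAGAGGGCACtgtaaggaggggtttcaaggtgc
LITAFD promoter, chr16:8974256-8974315, - strand: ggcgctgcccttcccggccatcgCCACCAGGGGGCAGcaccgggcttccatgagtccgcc
Upstream of KRT17, chr17:39804292-39804351, - strand: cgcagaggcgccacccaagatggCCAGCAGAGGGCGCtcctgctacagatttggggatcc
PIGX intron, chr3:196411906-196411965, - strand: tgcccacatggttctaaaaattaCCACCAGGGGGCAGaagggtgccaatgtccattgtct
Near RABAC1, chr19:42455945-42456004, - strand: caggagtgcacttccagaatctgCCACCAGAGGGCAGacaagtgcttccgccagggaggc
The next 2 are the central 200 bases of a wide promoter peak and of a wide intronic peak, with every CG dinucleotide in capitals. The stretch upstream of WDR55, a gene for a nucleolar protein of ribosome production, has 17 CG in 200 bases. The stretch in an intron of LGR6, which encodes an R-spondin receptor, has 3.
WDR55 promoter, chr5:140044226-140044425, + strand: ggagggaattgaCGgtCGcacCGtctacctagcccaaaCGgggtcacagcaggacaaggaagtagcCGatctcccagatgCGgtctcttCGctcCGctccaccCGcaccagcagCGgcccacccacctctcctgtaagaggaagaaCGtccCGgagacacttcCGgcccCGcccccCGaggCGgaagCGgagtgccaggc
LGR6 intron, chr1:202205401-202205600, + strand: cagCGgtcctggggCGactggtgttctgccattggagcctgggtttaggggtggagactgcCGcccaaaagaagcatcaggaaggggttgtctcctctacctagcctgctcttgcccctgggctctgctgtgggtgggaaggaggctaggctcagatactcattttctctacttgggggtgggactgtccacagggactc

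The 1500 regions (exact 95% Poisson interval 1425 to 1578) were 38.2% of the 3929 wide mock peaks (95% Wilson interval 36.7 to 39.7). Among mock peaks of all widths in the same stretches, 83.0% had no counterpart in either drug list. These shares are set by the rule and are given as description. The other 2429 wide mock peaks, called found again below, overlapped an Ara-C peak alone in 2013 cases, a DNR peak alone in 99 and peaks of both drugs in 317. All intervals here and below cover counting error only, and neighbouring peaks are not replicates.

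The share without a counterpart fell with width. It was 63.2% (2123 of 3360) at 250 bp, just outside the width rule, and 48.4% (820 of 1693) at 300 bp, just inside it. It was 38.7% at 350 bp, 27.5% at 400 bp and 16.3% (21 of 129) from 600 to 750 bp. None of the 33 mock peaks of 800 bp or more lacked a counterpart, with an upper Wilson limit of 10.4%. The widest region measured 750 bp, and 820 of the 1500 measured exactly 300 bp. At the overlap edge of the rule, 32 regions touched an Ara-C peak without sharing a base and 8 touched a DNR peak. Among the wide mock peaks found again, 50 of 2330 shared only 50 bp with Ara-C peaks, the smallest overlap on the 50 bp grid of the lists.

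Gene region was not used to choose the peaks. Promoters, taken as 2 kb upstream of a coding transcription start site (TSS) to the TSS, held 229 of the 1500 regions by midpoint, or 15.3% (13.5 to 17.2), against 1.90% of sequenced bases. Exons of coding genes held 93 (6.20%), introns 585 (39.0%) and sequence outside coding genes 593 (39.5%), of which 176 lay in a non-coding gene. Wide mock peaks found again lay at promoters in 28.0% of cases, 12.7 points more often (Newcombe interval of the regions minus these peaks -15.2 to -10.1). They lay in introns less often, at 28.6%, a difference of 10.4 points (7.34 to 13.4). The exon and intergenic differences, -0.305 points (-1.83 to 1.31) and 2.60 points (-0.515 to 5.74), had intervals that include 0. The promoter difference was present at each width, with 16.1% against 24.7% at 300 bp, 11.7% against 27.9% at 350 bp and 17.5% against 30.9% from 400 to 750 bp.

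Against other peaks of a single list, the regions were promoter-rich. Narrow mock-only peaks (150 to 250 bp) lay at promoters in 5.89% of cases, 9.37 points less often (7.62 to 11.3). Wide peaks found under DNR alone did so in 3.64%, 11.6 points less often (9.44 to 13.8). Wide peaks found under Ara-C alone came close, at 12.6%, a difference of 2.64 points (0.484 to 4.89).

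**Figure D1:**
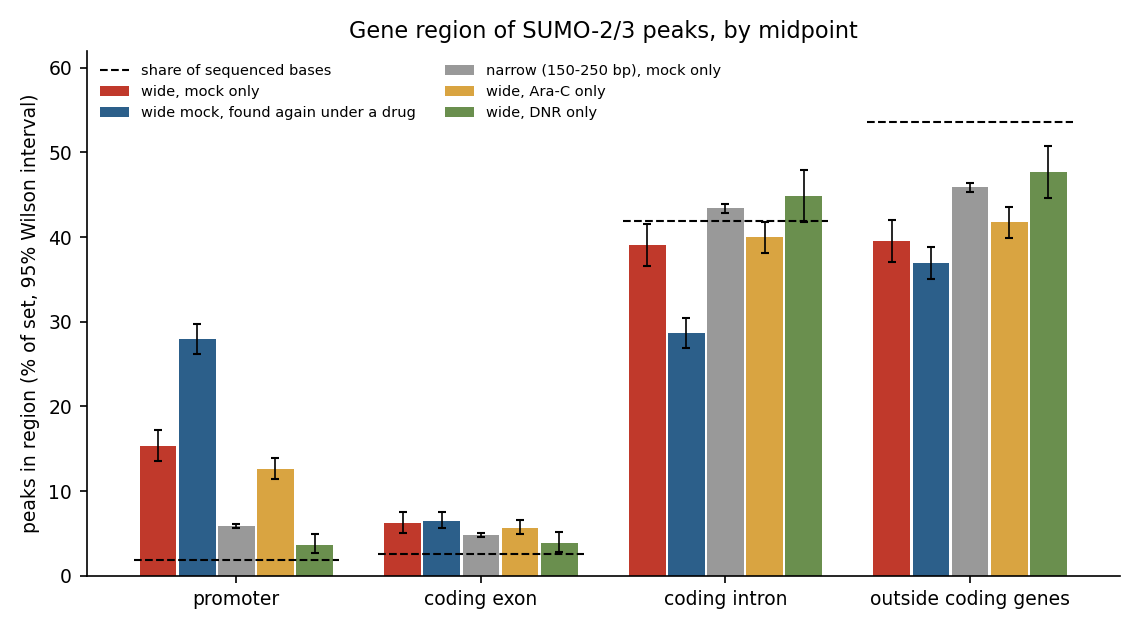
Percent of each peak set whose midpoint lay in a coding promoter, coding exon, coding intron or outside coding genes; bars are shares with 95% Wilson intervals, and dashed lines give the share of sequenced bases. The wide mock-only bar at promoters (15.3%) stands between that of wide mock peaks found again (28.0%) and that of narrow mock-only peaks (5.89%), and close to wide Ara-C-only peaks (12.6%).

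Positions around the TSS were then compared. Of the 1500 regions, 291 (19.4%) had a midpoint within 1 kb of a coding TSS, 144 upstream, 146 downstream and 1 on it. Upstream peaks were thus 49.5% (43.8 to 55.2), and the median offset was 3 bp downstream (-37 to 29, the 95% interval of the median). Of the 728 wide mock peaks found again within 1 kb of a TSS, 515 lay upstream, or 70.7% (67.3 to 73.9), with a median of -76 bp (-92 to -65). The difference in the upstream share was -21.3 points (-27.8 to -14.6). Against narrow mock-only peaks, 50.4% upstream, it was -0.923 points (-6.96 to 5.12). Against wide peaks found under Ara-C alone, 56.0% upstream, it was -6.49 points (-13.8 to 0.937). Against those under DNR alone, 44.2% upstream, it was 5.30 points (-10.5 to 20.2). The even split is thus not particular to mock-only peaks. Over all regions the median distance to a TSS was 20349 bp (17924 to 22908), against 8562 bp (7397 to 9840) for wide mock peaks found again and 41990 bp for narrow mock-only peaks.

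**Figure D2:**
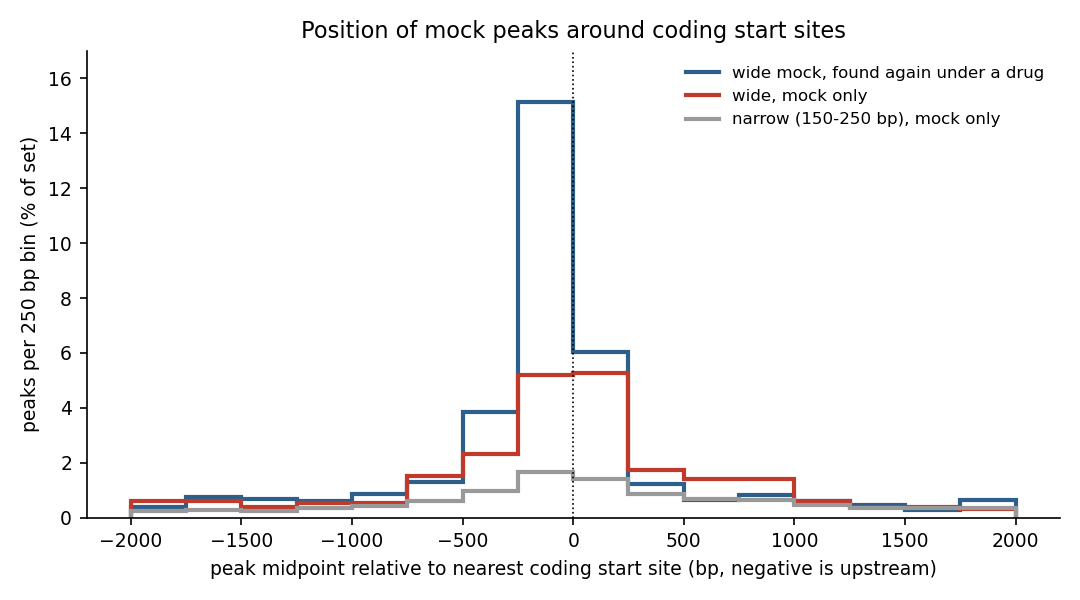
Percent of each set of mock peaks per 250 bp bin of the distance from the peak midpoint to the nearest coding start site, negative values being upstream. Wide peaks found again form a tall step in the bin just upstream (15.2%, against 6.05% just downstream), whereas wide mock-only peaks fill the bins on either side alike (5.20% and 5.27%).

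A promoter window with 1 of these peaks was present at 253 coding genes, 1.28% of 19812. Of the 229 peaks, 206 lay in the window of 1 gene, 22 in those of 2 genes and 1 in those of 3. An Ara-C peak lay elsewhere in the promoter windows of 82 of the 253 genes (32.4%) and a DNR peak in those of 21 (8.30%), while 160 genes (63.2%, 57.1 to 68.9) had neither. Another mock peak was present at 66 (26.1%). Over all coding genes, 23.5% had an Ara-C peak and 5.73% a DNR peak in a promoter window. The overlap rule keeps drug peaks away from the chosen mock peaks, so these shares are description.

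The widest promoter region, of 650 bp, lay at chr18:59853751-59854400 over the start of PIGN, an enzyme of GPI anchor synthesis, and upstream of RELCH, whose product takes part in cholesterol transport. Its midpoint was 413 bp upstream of RELCH and 147 bp inside PIGN. The nearest Ara-C peak was 2700 bp away and the nearest DNR peak 33100 bp. The next, of 600 bp, lay at chr9:97402051-97402650 over the start of FBP1, which encodes the gluconeogenic enzyme fructose-bisphosphatase. There a DNR peak began 850 bp away and the nearest Ara-C peak lay at 15750 bp.

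Several of the widest promoter regions lay at genes of transcription and chromatin, a grouping made by hand. Whether such genes are more frequent here than at other promoter peaks was not tested. A 550 bp peak lay 71 bp upstream of a TSS of SMARCE1, a subunit of the SWI/SNF remodelling complex (chr17:38803901-38804450), with an Ara-C peak 300 bp away. A 500 bp peak lay 227 bp upstream of POLR3A, the largest subunit of RNA polymerase III (chr10:79789251-79789750), with the nearest drug peak 3950 bp away. At MAFG, a small MAF partner of bZIP factors, a 500 bp peak 542 bp upstream of a TSS touched an Ara-C peak without sharing a base. The rule counts it as without a counterpart although the peaks adjoin. A 500 bp peak over the start of the histone gene H2BC4, 350 bp upstream of the histone gene H2AC6 (chr6:26123801-26124300), had an Ara-C peak 100 bp away and a DNR peak 250 bp away. Histone genes form families of similar copies, and placement there depends on uniquely aligned reads. At ZSCAN30, a zinc finger gene, the 500 bp peak lay 91 bp upstream of the TSS, 1350 bp from a DNR peak and 14750 bp from an Ara-C peak.

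Others of the 20, also grouped by hand, lay at genes of metabolism and protein turnover or, at BCL2, of cell survival. The 550 bp peak at UCP2, a mitochondrial carrier, lay 637 bp upstream of a TSS and 550 bp from an Ara-C peak. The 550 bp peak at ARIH1, a ubiquitin ligase, lay 246 bp upstream with an Ara-C peak 3400 bp away. The 550 bp peak of WDR55, whose centre is printed above, lay 164 bp upstream and was isolated, with the nearest Ara-C peak at 24850 bp and the nearest DNR peak at 18700 bp. At ACOD1, which makes itaconate in activated myeloid cells, the midpoint lay 1996 bp upstream, at the far edge of the window. A 500 bp peak lay 1039 bp upstream of BCL2, the anti-apoptotic gene (chr18:60988151-60988650), 1300 bp from an Ara-C peak and 6450 bp from a DNR peak. At MLLT11, first described as a fusion partner of KMT2A in leukemia, a 500 bp peak with 71.6% GC lay 873 bp upstream and 98 bp inside CDC42SE1, with an Ara-C peak 200 bp away. The remaining peaks among the 20 widest were at PPIL4 (550 bp), PLPP6, TMEM260, ANKRD29, TTC39C and SIRPB2 (500 bp each) and TPRKB (450 bp), with GC contents of 43.4% at ANKRD29 to 69.2% at TTC39C. At PPIL4, TMEM260 and TTC39C the TSS was an internal one, far from the 5′ end of the gene.

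Away from promoters, the widest region of all, 750 bp, overlapped an exon of TRNAU1AP, a factor of selenoprotein synthesis (chr1:28903951-28904700), with an Ara-C peak 100 bp away. The other widest exon peaks were at ZNF689 (700 bp), KIF21B, MTURN and LDHAL6A (450 bp each). In introns, the widest was that of LGR6 (700 bp), with no drug peak within 23950 bp. Intronic peaks of 650 bp followed in CHST11, a chondroitin sulfotransferase, in CTIF and in BBC3, the p53 target PUMA (chr19:47730651-47731300, 3481 bp from a TSS). One of 600 bp lay in PPARG, a nuclear receptor, with a GC content of 33.7%. Outside coding genes, 2 peaks of 700 bp had NR3C1, the glucocorticoid receptor, 170673 bp away and TXN2, mitochondrial thioredoxin, 45337 bp away as their nearest coding TSS. Of the peaks of 650 bp there, the 3 that come first by position were nearest to FASLG, NQO2 and RXRA.

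Most genes with a region in their promoter or body had 1, namely 876 coding genes, while 56 had 2, 7 had 3, 2 had 4 and 1 had 5. The gene with 5 was DNAJC3, an endoplasmic reticulum co-chaperone on chromosome 13, with widths of 300, 400, 350, 400 and 350 bp in order along the gene. The first lay in its promoter (67.7% GC), and the third touched a DNR peak. DNAJC3 held 15 mock, 13 Ara-C and 3 DNR peaks in all. GREB1L had 4, of 350, 300, 300 and 300 bp. ARHGAP26, a GTPase-activating protein known as a KMT2A fusion partner, and PRIM2, a primase subunit with similar copies elsewhere in the genome, had 3 each. They were taken from 7 genes with 3 by order of position, and counts of this kind grow with gene length.

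Lists of genes chosen for HL-60 cells were then read against the coding-gene background of 1.28% with a region in a promoter window and 4.75% with a region in a promoter window or gene body. Among 31 myeloid transcription factors, 4 had a promoter region (12.9%) and 8 had 1 anywhere (25.8%). Mock promoter peaks of any width (48.4%) and of 300 bp or more (25.8%) were also above all coding genes (19.2% and 5.05%) in this list, so the count is not particular to peaks without a counterpart. The promoter peaks lay at EGR2 (chr10:64577951-64578250), LYL1 (chr19:13215151-13215550), RUNX1 (chr21:36260201-36260500) and RUNX2 (chr6:45389351-45389650). The peaks were 300 bp wide, except that of LYL1, which was 400 bp. The peak of EGR2, an early response zinc finger factor, lay 50 bp from a DNR peak and 850 bp from an Ara-C peak. The peak of LYL1, a bHLH factor of blood progenitors, was farther away, 3950 bp from an Ara-C peak. RUNX1, often mutated in AML, had its nearest Ara-C peak at 1100 bp, and RUNX2 at 1750 bp. In gene bodies, MYB, a driver of progenitor growth, had a 600 bp peak 2498 bp downstream of its TSS (chr6:135504851-135505450), with a DNR peak 1900 bp away and no peak of any list in its promoter windows. ETV6, GFI1B and RUNX3 had intronic peaks of 300, 350 and 300 bp.

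In the other lists the promoter counts were 0 or 1. The 26 granule and surface genes had 1 (3.85%), at CD14, the monocyte receptor for lipopolysaccharide (300 bp, 1565 bp upstream), and regions in the bodies of CD44, with 2, and MPO, the myeloperoxidase of primary granules (350 bp). The 28 apoptosis and p53 genes had 1 (3.57%), at BCL2, besides the BBC3 intron. No promoter region was found at the 26 SUMO pathway genes, the 16 chromatin looping genes, the 29 NF-kB and inflammation genes, the 32 cell cycle genes or the 25 kinase and AML genes. Lists of this size are too short for a count of 0 to be set apart from 1.28%. A promoter region also needs a mock promoter peak of 300 bp or more. Such peaks were present at 2, 1, 2, 0 and 0 genes of these lists, in the order named. Where none was present, the count of 0 was fixed in advance. In gene bodies, PIAS2, a SUMO ligase, had a 400 bp intronic peak and SENP1, a SUMO protease, a 300 bp one 500 bp from a DNR peak. YY1, a looping factor, had a 300 bp peak. The body counts were 3 of 29 (10.3%) for NF-kB genes (IER3, TNFRSF1A and TNFRSF1B) and 6 of 32 (18.8%) for cell cycle genes. The latter were AURKA, CCND3, CDC25C, CDK6, PCNA and RB1. The last list had 1 of 25 (4%), KMT2A. The share over all coding genes was 4.75%. Such counts grow with gene length, which was not taken into account. The peak in TNFRSF1A, the main TNF receptor, was 400 bp wide and centred 43 bp downstream of a TSS. That in PCNA, the replication clamp, was 450 bp wide and centred 329 bp downstream.

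The regions were richer in GC than the DNA around them. Their median GC content was 48.7% (95% interval of the median 48.0 to 49.3), against 44% in windows of the same width 2 kb away on either side. The peak exceeded the mean of its 2 windows in 71.1% of cases (68.8 to 73.4). Wide mock peaks found again had 55.6% (55.1 to 56.0), and narrow mock-only peaks 44%. The median ratio of observed to expected CG dinucleotides was 0.259 (0.246 to 0.278) against 0.486 (0.461 to 0.510) in wide peaks found again. At promoters the gap in GC was small, 60% against 61.5%. It was wider in introns (46.7% against 53.1%) and outside coding genes (46.6% against 51.1%). Wide peaks found under Ara-C alone had a median of 47.0% (46.3 to 47.4) and those under DNR alone 47.6% (46.7 to 48.3).

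**Figure D3:**
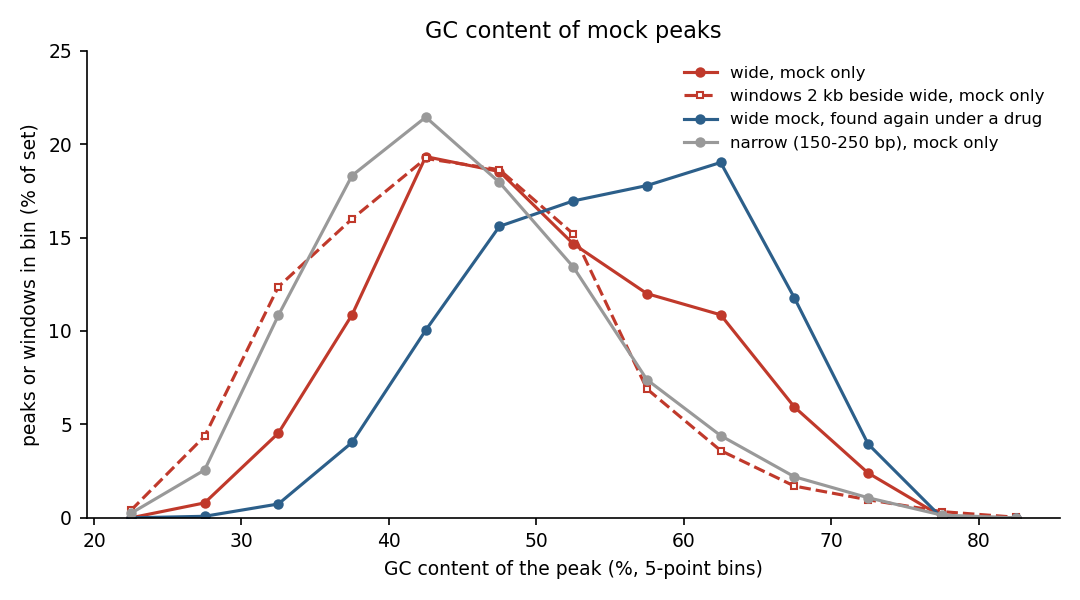
Percent of peaks in 5-point bins of GC content for wide mock-only, wide found-again and narrow mock-only mock peaks, with windows 2 kb beside the wide mock-only peaks as a dashed line. The wide mock-only curve (median 48.7%) lies to the right of its own flanking windows (44%) and to the left of wide peaks found again (55.6%).

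The CTCF core motif shown above was present in 75 of the 1500 regions, 5.00% (4.01 to 6.22), and in 0.200% of the windows beside them. It was present in 9.63% of wide mock peaks found again, a difference of -4.63 points (-6.22 to -2.98). The size of these shares depends on the motif rule, since with 1 mismatch allowed they were 15.9% of regions, 0.967% of the windows and 26.6% of wide peaks found again. The difference at 350 bp had an interval that includes 0 (-5.39 to 1.5 points). The motif was scarce at promoters, with 3 of 229 regions (1.31%, 0.447 to 3.78) against 35 of 679 promoter peaks found again (5.15%, 3.73 to 7.08). In introns it was present in 5.13% of regions against 12.2%, and outside coding genes in 6.07% against 10.4%. Wide peaks found under Ara-C alone held it in 3.31% and wide peaks found under DNR alone in 0.0983% (1 of 1017). The peak at CDC42SE1, the first printed, lay 50 bp from an Ara-C peak, whereas those at UNC5CL and LITAFD had no drug peak within 7200 and 9900 bp.

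Other short motifs were searched on both strands. The promoter motifs were less frequent in the regions than in wide mock peaks found again. The GC box GGGCGG, bound by SP and KLF factors, was present in 16.8% against 32.7% (-15.9 points, -18.5 to -13.2), and the ETS motif CCGGAAG in 5.07% against 10.6% (-5.51 points, -7.14 to -3.82). The E-box CACGTG was present in 5.00% against 9.14% (-4.14 points, -5.71 to -2.51) and the E-box CAGCTG in 21.4% against 25.7% (-4.29 points, -6.96 to -1.55). The differences were smaller for the RUNX motif TGTGGTT, 9.0% against 11.2% (-2.20 points, -4.08 to -0.238), and for the ETS motif AGGAAGTG, 5.80% against 7.90% (-2.10 points, -3.67 to -0.460). The C/EBP motif TTGCNNAA was present in 21.3% against 21.4%, with an interval of the difference of -2.75 to 2.52 points, and 15.3% of the windows beside the regions held it. The AP-1 motif TGANTCA was present in 10.7% of regions and 10.3% of windows beside them. Wide peaks found again are longer (mean 385 bp against 343 bp), which gives a motif more room. Peaks were therefore also compared at 300 bp, at 350 bp and from 400 to 750 bp, a split added after seeing the data. The differences for GGGCGG (-15.4, -13 and -12.6 points) and CCGGAAG (-3.46, -6.26 and -6.03 points) had intervals below 0 at all 3 widths. For CACGTG the interval was below 0 at 300 bp and from 400 to 750 bp but not at 350 bp (-5.09 to 1.23 points). For CAGCTG it was below 0 only at 350 bp (-11.5 to -0.941 points), and for TGTGGTT only at 300 bp (-5.65 to -0.425 points), with a difference of 0.688 points (-3.37 to 5.4) from 400 to 750 bp. For AGGAAGTG, TTGCNNAA and TGANTCA it included 0 at all 3 widths. Wide peaks found under Ara-C alone held GGGCGG in 13.9% and CCGGAAG in 4.64%. The regions minus these peaks gave 2.88 points (0.632 to 5.21) and 0.426 points (-0.883 to 1.85). Wide peaks found under DNR alone held them in 7.67% and 0.885%. These motifs were not compared within gene regions, although the sets differ in promoter share. GGGCGG can overlap the CTCF core, and a match is not a bound site.

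Drug peaks were often near the regions without overlapping them. The nearest Ara-C peak lay at a median of 5200 bp (4700 to 5800) and the nearest DNR peak at 15725 bp (14250 to 16850). An Ara-C peak lay within 1 kb of 21.1% of the regions and a DNR peak within 1 kb of 7.87%. Either drug had a peak within 1 kb of 393 regions (26.2%). The nearest drug peak was an Ara-C peak for 1063 regions, a DNR peak for 434, and both lay equally far for 3. The Ara-C list is the denser one, with 24.9 peaks per Mb in the stretches used against 11.2 for DNR. Narrow mock-only peaks lay farther from both, at medians of 8100 bp (7950 to 8250) and 20250 bp (19900 to 20650).

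**Figure D4:**
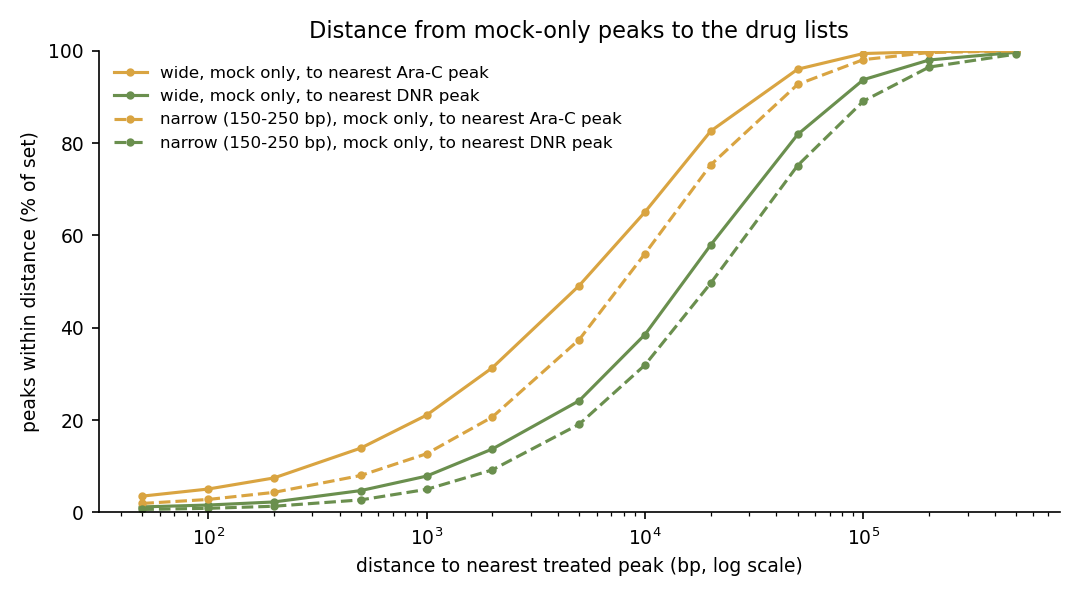
Cumulative percent of mock-only peaks with an Ara-C or DNR peak within the distance on the log-scaled x axis, in bp. Wide mock-only peaks (solid lines) reach 65.1% within 10 kb for Ara-C and 38.5% for DNR, above narrow mock-only peaks (dashed lines) in both cases.

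Regions close to a drug peak were more often at promoters. Of the 393 with a drug peak within 1 kb, 21.6% (17.8 to 26.0) lay at promoters, against 13.3% (11.0 to 15.9) of the 723 at 1 to 10 kb and 12.5% (9.56 to 16.2) of the 384 beyond 10 kb. The CTCF core was present in 3.56%, 5.39% and 5.73% of these groups, with overlapping intervals. By gene region, promoter regions had a median of 4250 bp to an Ara-C peak and 21400 bp to a DNR peak, while intronic ones had 5300 and 14100 bp. Regions that touched a drug peak included 1 of 300 bp in GOLT1A with a CTCF core, 1 of 350 bp in GNG4 and 1 of 350 bp far upstream of ID2, an inhibitor of bHLH factors. Another lay near NBPF1, a gene with many similar copies, and 1 near RAP1GAP. The most isolated regions were near GINS4 and ASPH and in SGCZ on chromosome 8, where peaks of all lists were sparse outside the dense stretch, and in NREP. The one near GINS4 lay 243900 bp from the nearest drug peak.

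The regions were unevenly spread over chromosomes. Autosomes had a median of 0.503 per sequenced Mb, and the highest densities were 1.59 on chromosome 22, 1.48 on chromosome 13, 1.36 on chromosome 18 and 1.06 on chromosome 6. These 4 autosomes, picked for this density, held 469 regions, 31.3% of all, on 13.1% of the sequence in scope. All 3 lists were dense there, with 39.4 mock, 57.3 Ara-C and 30.4 DNR peaks per Mb on chromosome 13. Over the 22 autosomes, the density of the regions rose with that of wide mock peaks found again (Spearman correlation 0.928). The high densities are therefore not particular to peaks without a counterpart. Chromosomes 8 and X had 0.0534 and 0.0603 regions per Mb. DNA copy number of the line was not measured here, and its part in these densities was not tested. The share of wide mock peaks without a counterpart, which does not depend on the length of the chromosome, was 55.6% on chromosome 13 (140 of 252, 49.4 to 61.6) and 49.5% on chromosome 18 (99 of 200, 42.6 to 56.4). On chromosome 4, with fewer peaks, it was 49.3% (35 of 71, 38.0 to 60.7). It was 31.8% on chromosome 22 (25.2 to 39.1), 28.6% on chromosome 17 (23.1 to 34.8) and 28.4% on chromosome 19 (22.4 to 35.3). Chromosome 22 thus had the highest density and a share whose interval includes the 38.2% of all chromosomes.

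**Figure D5:**
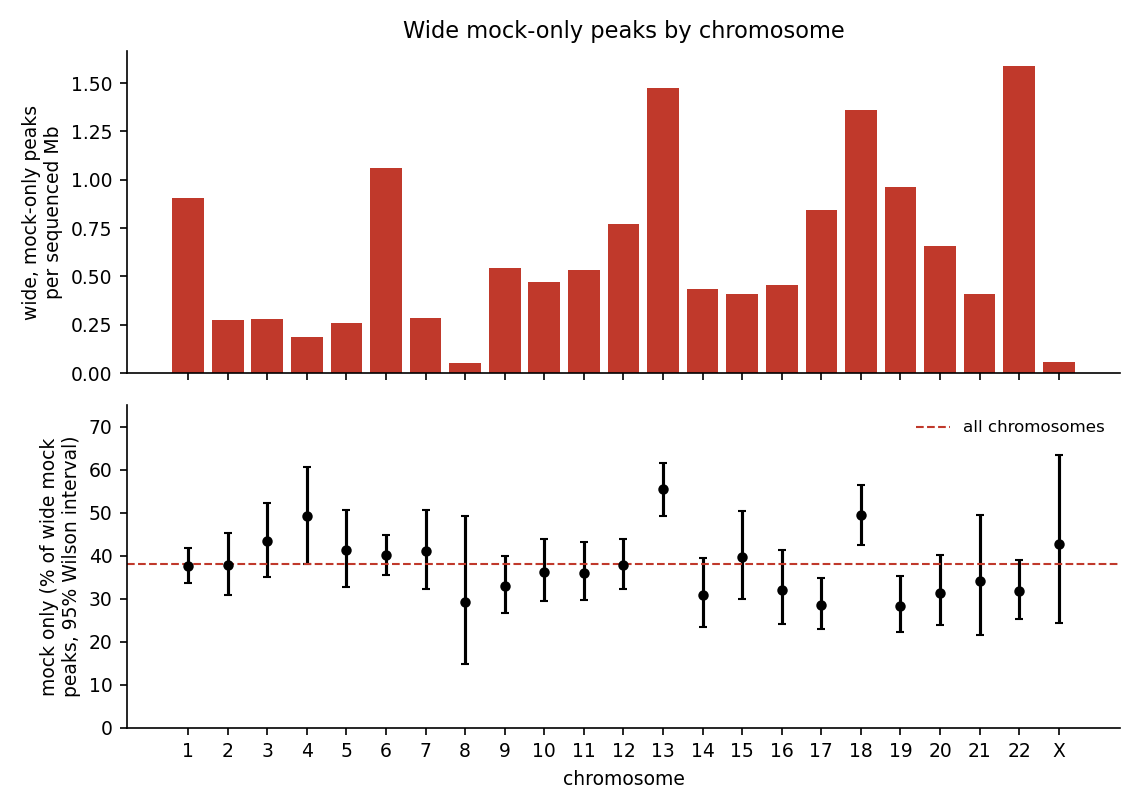
Upper panel, wide mock-only peaks per sequenced Mb on each chromosome except Y, which held 1 region. Lower panel, the percent of wide mock peaks without a counterpart in either drug list, with 95% Wilson intervals and the value over all chromosomes (38.2%) as a dashed line. On chromosomes 13 and 18 the whole interval stands above the line, while on chromosome 4 (49.3%) and others above it the interval reaches the line. Chromosome 22, the densest in the upper panel at 1.59 per Mb, lies at 31.8% with an interval that reaches the line.

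On the 4 dense autosomes the regions lay at promoters in 8.74% of cases (6.51 to 11.6), and on the other chromosomes in 18.2% (16.0 to 20.7). Wide mock peaks found again were more often at promoters in both, at 20.9% and 30.2%, so the difference was much alike, -12.2 points (-16.3 to -7.97) and -12.0 points (-15.1 to -8.76). The CTCF difference was -5.84 points (-8.63 to -3.07) on the dense autosomes and -3.95 points (-5.90 to -1.88) elsewhere. Regions seldom adjoined each other, with 18 within 1 kb of another region and 431 (28.7%) within 100 kb. The 5 Mb bin with the most, at 135 to 140 Mb of chromosome 6, held 21 of its 48 wide mock peaks. The share was 40.1% over chromosome 6 and 38.2% over all chromosomes, so the bin stands out by its number of wide mock peaks.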

How the data were processed

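SUMO-2/3 ChIP-seq was analysed in 3 lists of peak positions, 1 each for mock-, Ara-C- and DNR-treated HL-60 cells. The authors aligned single-end reads to hg19 (CASAVA 1.8.2 per the submitters' processing notes), kept unique reads, extended them to 210 bp (mock, Ara-C) or 220 bp (DNR), scaled the libraries, subtracted the input and called runs above a signal of 32 with gaps up to 100 bp. The deposited files hold no score, count or p-value. One fixed threshold means that depth, scaling or noise can move a peak in or out of a list. The 3 inputs were not analysed here.

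Peak edges fall on a 50 bp grid, and starts were read as 1-based. Genes came from GENCODE 44 lifted to GRCh37 (19812 coding genes, 55871 coding start sites). Each peak was placed by midpoint as promoter, exon, intron or outside coding genes. Sequences were read from GRCh37, motifs were searched on both strands, and windows 2 kb away served as background. Shares carry 95% Wilson intervals, counts exact Poisson intervals and differences Newcombe intervals. With 1 library per condition no test was possible. Overlaps were checked with bedtools 2.31.1, and the overlap, distance, promoter, motif and interval steps were tested on simulated data. Computations used Python 3.11.15, numpy 2.4.6, scipy 1.17.1 and pysam 0.24.0.

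The members and the gene lists were chosen with earlier results of these data known. Named regions were the 20 widest at promoters, the 5 widest in each other class, the 5 nearest to and farthest from a drug peak, the 5 genes with most regions and listed genes with a promoter region, ties going by position. Other listed genes with a region in the gene body were named after their values were seen. For the printed sequences, the widest region was passed over when its window overlapped an untranslated region, which skipped 3. Some named items are not reported here.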

Additional observations from a re-analysis of the deposited data

Results flagged for a closer look

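Wide mock peaks without a counterpart were also present in the stretches left out by the rule, which no comparison above used. On chromosome 8, the dense stretch at 125 to 135 Mb held 86 of them among 265 wide mock peaks, or 32.5% (27.1 to 38.3). The first and last 1 Mb of the chromosomes held 39 among 109, or 35.8% (27.4 to 45.1). Both intervals include the 38.2% found in the stretches that were used.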

How the results depend on the processing

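Under 10 other settings, 60 values of 10 results were recomputed. The 19 values that were differences from wide mock peaks found again stayed below 0. In all, 35 values moved by less than their interval or by less than 1.5 times for counts. A minimum width of 250 bp gave 3623 regions, 13% at promoters, a median GC of 47.6% and 518 genes with a promoter region. A minimum of 400 bp gave 303 regions, 17.5%, a CTCF core share of 3.30%, a GC of 51.2%, a median of 4300 bp to an Ara-C peak and 58 genes, and the difference in median GC from wide peaks found again went from -6.97 to -4.4 points. Counting a drug peak within 500 bp as a counterpart moved the medians to 7200 bp for Ara-C and 17100 bp for DNR, a shift that follows from its construction. The promoter share was 19.4% for 1 kb on either side of the TSS, 21.2% with the start sites of all genes and 17.3% when any shared base counted. Allowing 1 mismatch in the CTCF core raised its share to 15.9% and the difference from wide peaks found again to -10.7 points, and counting a gene's 5′-most start site alone left 165 genes. Leaving out the 4 dense autosomes, an alternative chosen after seeing the data, gave 18.2% at promoters, a GC of 50.6% and medians of 6150 bp and 19200 bp to Ara-C and DNR peaks. No paired analysis was possible because no condition had more than 1 library. Depth is unknown, so no peak can be said to be absent rather than under the threshold.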
